A study of Mus musculus with 8 samples.

Results

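Pseudogenes resemble protein-coding genes but are annotated as not giving a full, functional protein. Processed pseudogenes are retrocopies, made when a spliced mRNA was reverse transcribed and inserted elsewhere in the genome, so they lack introns and arrive without the promoter of their parent gene. Unprocessed pseudogenes are duplicated stretches of DNA that can carry a promoter with them, unitary pseudogenes are genes that lost their function without a copy, and polymorphic pseudogenes are intact in some strains and disrupted in others.

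Capped 5' ends of nuclear RNA were mapped by CAGE-seq in mouse embryonic stem cells (mESCs), to compare where transcription initiates with and without PWWP2A and PWWP2B, a pair of related proteins that bind the histone mark H3K36me3. The groups were wild-type E14 (3 libraries) and 2 clonal Pwwp2a/b double knockout (DKO) lines, A1 (2 libraries) and C7 (3 libraries), all grown in serum with LIF. A tag cluster is a group of neighbouring capped 5' ends on one strand, and its dominant TSS is the position with the most signal. The replicates of each line had been merged before clusters were called and every deposited score is 0, so the data give positions in 3 merged cluster sets. Replicate error and expression levels cannot be had from these positions, depth per library was not analysed here, and intervals below are 95% Wilson intervals, which cover counting error only.

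The clusters described here are those whose dominant TSS lay inside an annotated pseudogene on the same strand or within 500 bp of its start, and outside every protein-coding gene on that strand extended by 500 bp upstream. There were 414 such clusters of 32857 in E14, or 1.26% (95% interval 1.15% to 1.39%). DKO A1 had 416 of 33005 and DKO C7 had 419 of 32870. They lay at 317 of the 13523 pseudogenes annotated in GENCODE M21 in E14, at 317 in A1 and at 322 in C7. Positions are given on mm10.

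The cell type label was checked against markers. All 10 stem cell markers examined, including Pou5f1, Nanog and Sox2, had a cluster at a transcript start in each line. Of the markers of other cell types, Sox17, Sox7 and Pdgfra (3 of 6, primitive endoderm), Krt8 (1 of 4, trophoblast) and Col1a1, Col1a2 and Thy1 (3 of 5, fibroblasts) had one in each line. Gata6, Gata4 and Foxa2 of primitive endoderm, Cdx2, Elf5 and Eomes of trophoblast and Twist1 and Postn of fibroblasts had 0 clusters at a start in every line. Pwwp2a had 1 cluster and Pwwp2b had 0 in every line, so the presence of a cluster at these genes did not separate the DKO lines from E14.

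A few sequences were chosen as examples of different kinds of site. The first are retrocopies whose dominant TSS corresponds to a coding base of the closest protein-coding transcript, where that gene had a dominant TSS of its own at the same base or 1 base away. Npm1 encodes nucleophosmin, an abundant nucleolar protein, and its retrocopies Gm6477 and Gm9118 are both on chromosome 10. Each line gives 10 bases before the dominant TSS and 20 from it on, from GENCODE transcripts on GRCm38, with the base before the TSS and the TSS itself in capitals.
Gm6477 (chr10:39198921-39198950, plus strand): gatgaggagGAcgtaaaactcttaggcatg
Npm1 (chr11:33160379-33160408, minus strand): gatgaggagGAcgtaaaactcttaggcatg
Gm9118 (chr10:56497600-56497629, plus strand): tcccttgggGGctttgaaattacaccacct
Npm1 (chr11:33160889-33160918, minus strand): tccctagggGGctttgaaattacaccacct
Gm6477 and Npm1 were identical over these 30 bases, and Gm9118 and Npm1 differed at 1 base, which lies before the TSS. Another such site was in Cdv3, shared by a pair of its copies on chromosome 4.
Gm13148 (chr4:147746052-147746081, minus strand): gcctcctggGGcaaggctaaccacaacaag
Gm20760 (chr4:146933257-146933286, plus strand): gcctcctgaGGcaaggctaaccacaacaag
Cdv3 (chr9:103356367-103356396, minus strand): gcctcctggGGcaaggctaaccacaacaag
Gm13148 was identical to Cdv3 over the 30 bases and Gm20760 differed at 1. In both copies the dominant TSS lay 1 base from a dominant TSS inside the coding sequence of Cdv3.

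The other examples are the 5 widest clusters whose dominant TSS lay in a RefSeq promoter window, shown as examples of broad starts. RefSeq windows of 300 bases (GRCm38.p6) were found by symbol for 25 of the 317 pseudogenes.
Gm7972 (chr9:75468563-75468592, plus strand): agttcaggtCAggagttgcagttccttccc
Gm10033 (chr8:69395520-69395549, minus strand): cgggcgccgTGctctcggctcttttctgaa
Gm10046 (chr7:27765691-27765720, plus strand): ggaccggccCAagtttcacgctgggatcag
Gm3325 (chr13:62015932-62015961, plus strand): ttgttcctcTGctctctgtttctctccgtt
Gm4984 (chrX:12652220-12652249, plus strand): agggtcttcTGtgaggtccgcatttctgtg
All 5 have a pyrimidine before the TSS and a purine at it, the base pair most common at mammalian start sites, and their interquantile widths were 49, 41, 31, 30 and 30 bp. Their windows held from 8 to 14 CpG dinucleotides, against a median of 7 over 32851 RefSeq windows. Both bases were held by a reference file for 88 of the 414 clusters (21.3%), under the 80% needed to describe the set, so no share of such pairs is given for it. They were held for 79 of the 87 clusters inside an exon of their own pseudogene, and 31 of these (39.2%, 29.2% to 50.3%) had a pyrimidine followed by a purine. The share was 80.2% at starts of protein-coding genes (n = 12531) and 9.16% in exons of protein-coding genes over 500 bp from every start (n = 4040). The share in pseudogene exons lay between, but that set mixes sites near the annotated start with sites farther inside, so the sets are not alike. It was 13 of 43 (30.2%, 18.6% to 45.1%) in exons of processed pseudogenes and 18 of 36 (50.0%, 34.5% to 65.5%) in those of the other types. Inside exons of processed pseudogenes 11 of 43 dominant TSSs were a G preceded by a G, as at Gm9118, and 0 of 36 were in the other types (upper Wilson bound 9.64%). The interval of the processed share (14.9% to 40.2%) holds the 18.2% found in the exons of protein-coding genes away from starts, and the share was 3.89% at protein-coding starts. Sites of the same gene are not independent, which these intervals leave out. Many of the 36 sites of the other types were at Gm13230 and a few at Gm6445. None of those had a pyrimidine before a purine or a G before a G.

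Processed pseudogenes gave most clusters, while pseudogenes annotated as transcribed had a cluster most often. In E14, 242 clusters lay at processed pseudogenes and 56 at transcribed processed pseudogenes, which GENCODE sets apart for evidence of transcription. Unprocessed pseudogenes had 38, transcribed unprocessed 53, transcribed unitary 17, polymorphic 6 and pseudogenes of no stated type 2. Of the annotated genes, 217 of 9940 processed (2.18%) and 26 of 2642 unprocessed pseudogenes (0.984%) had a cluster. Among those annotated as transcribed the shares were 37 of 296 processed (12.5%), 27 of 253 unprocessed (10.7%) and 4 of 17 unitary (23.5%, 9.56% to 47.3%). No cluster lay at the 158 pseudogenes of immunoglobulin V segments (upper Wilson bound 2.37%), the 34 of T cell receptor V segments (10.2%) or the 24 unitary pseudogenes not annotated as transcribed (13.8%), against 2.34% over all pseudogenes.

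**Figure D1:**
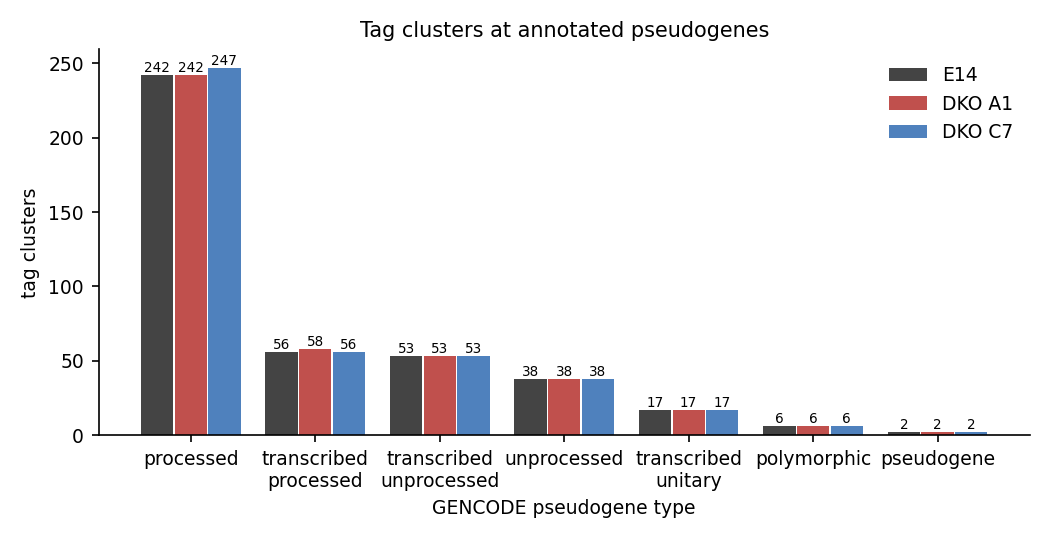
Number of tag clusters (vertical axis) at each GENCODE pseudogene type (horizontal axis) in E14, DKO A1 and DKO C7, 1 merged cluster set per line with no error bars. Processed pseudogenes lead with 242, 242 and 247 clusters, and the counts of all types other than the processed ones are the same in the 3 lines.

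Most pseudogenes had a single site. In E14, 267 of the 317 had 1 cluster, 31 had 2 and 19 had 3 or more. The most were at 4930519F16Rik, a transcribed unitary pseudogene on chromosome X (103182971 to 103311782), with 11 clusters in each line. One of them, 64 bp wide in E14, 53 bp in A1 and 60 bp in C7, was 44 bp upstream of the annotated start, with its dominant TSS at 103311826 in all 3 lines. The other 10 lay inside the gene, from 2317 to 58785 bp downstream of the start. Gm13230, a transcribed unprocessed pseudogene on chromosome 4 whose closest protein-coding match is the zinc finger gene Zfp982, also had 11 in each line. Its clusters ran from 145448370 to 145450356 and had a median interquantile width of 2 bp. Gm3325, a transcribed processed pseudogene on chromosome 13 matched to Zfp808, had 8 in each line, and Gm9320 on chromosome 17, matched to the ribosomal protein gene Rps24, had 5. The remaining genes among the 10 with the most clusters were 1810014B01Rik, 6820431F20Rik, Gm6445, Zfp125 and Zfp640 with 4 each and 2610005L07Rik with 3, and their counts were the same in A1 and C7 except at Zfp640, which had 5 in A1.

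Along the genome the clusters were uneven. Chromosome 12 gave the highest share of its E14 clusters to pseudogenes (3.19%), followed by chromosomes 13 (2.58%) and 4 (2.31%), and chromosome 11 the lowest among the autosomes (0.393%). Of windows of 5 Mb, the one from 145000001 to 150000000 on chromosome 4 held 33 clusters at 16 pseudogenes in each of the 3 lines. The next were the windows from 20000001 to 25000000 on chromosome 12, with 20 clusters, and on chromosome 8, with 15. These 3 windows held 16.4% of the E14 clusters. Their median interquantile widths were 14, 16 and 12 bp, against 5 bp over all pseudogene clusters.

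The members of these windows are in part copies of one another and share sequence, so they are not independent sites. On chromosome 4, 5 copies of Smarca5, which encodes a chromatin remodelling ATPase, had 7 clusters between them. The dominant TSS of Smarca5-ps, Gm13034 and Gm13135 corresponded to the same base of the Smarca5 transcript, base 198, although its distances from the annotated starts were -110, -204 and -203 bp. These clusters were 47, 57 and 35 bp wide, and the Smarca5 promoter cluster nearest to that base was 59 bp wide. Gm13034 and Gm13135 each had a second cluster 372 bp upstream of the start, at bases 30 and 29 of the Smarca5 transcript. The remaining copies, Gm13231 and Gm13136, had theirs at bases 224 and 234. On chromosome 8, 13 of the 15 clusters lay at 5 unprocessed pseudogenes, transcribed or not, whose closest match was Cdh11, which encodes a cadherin. They were Gm40466, Gm21811, Gm21092, 6820431F20Rik and 2610005L07Rik. They aligned to only 221 to 974 bases of its 5647-base transcript, at 91.2% to 95.7% identity, and their clusters were 2 to 41 bp wide. The other 2 clusters were at Gm21769. It and Gm10060, which lies just before the window (19784746 to 19784856), matched Nsfl1c, which encodes a cofactor of a protein-unfolding ATPase, over only 105 bases. Gm10060 had clusters 179, 96 and 11 bp upstream of its start and Gm21769 had clusters 97 and 11 bp upstream.

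Most clusters at processed pseudogenes not annotated as transcribed lay just upstream of the annotated copy. Of the 298 clusters at processed pseudogenes, transcribed or not, 226 (75.8%, 70.7% to 80.4%) had their dominant TSS upstream of the annotated start, and 162 (54.4%) were 1 to 100 bp upstream. The median distance of the upstream ones was 55 bp (quartiles 32 to 112). The 2 processed types differed in this. Upstream of the start were 209 of 242 clusters (86.4%, 81.5% to 90.1%) at processed pseudogenes and 17 of 56 (30.4%, 19.9% to 43.3%) at transcribed processed ones, of which 21 (37.5%) lay inside beyond 500 bp. Clusters of the other types were placed more like the latter, with 28 of 116 (24.1%, 17.3% to 32.7%) upstream and 58 (50.0%) inside the gene more than 500 bp from its start. The rule itself limits the upstream distance to 500 bp for every type, but it takes in the whole gene body. A copy shorter than 500 bp has no room for a TSS farther inside than that. The part of gene length in these shares was not tested.

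**Figure D2:**
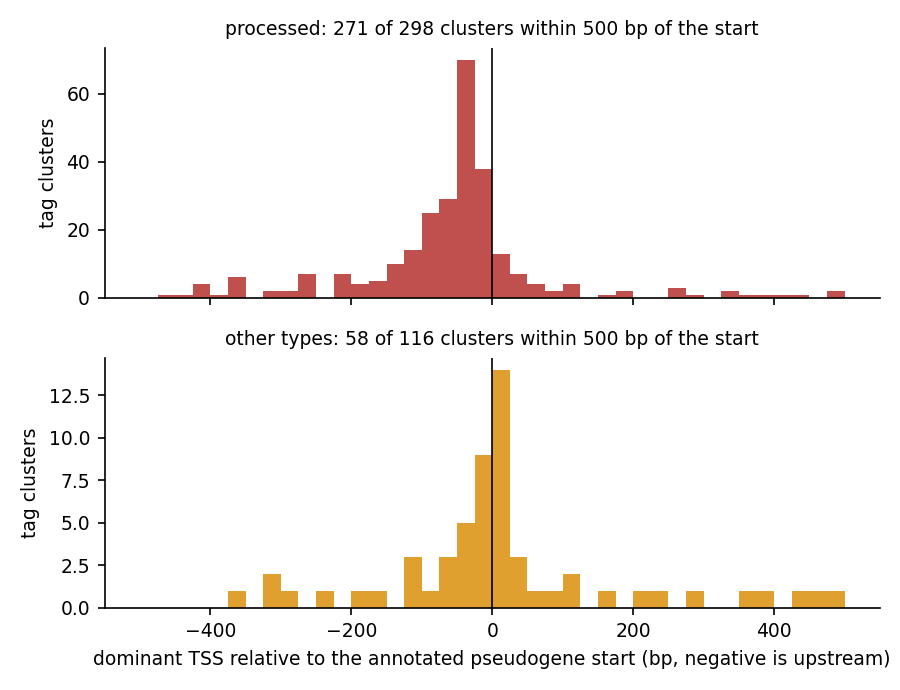
Histograms of the distance in bp of the dominant TSS from the annotated pseudogene start in E14 (bins of 25 bp), for processed pseudogenes above and other types below, with the number of clusters on the vertical axes. The processed clusters pile up upstream of 0, with 226 of 298 upstream, while clusters of the other types lie on both sides.

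Clusters at processed pseudogenes were narrow, and those of the other types varied with their place. The interquantile width, the stretch between the 0.1 and 0.9 quantiles of a cluster's signal, was 5 bp at the median in all 3 lines, with quartiles of 2 and 15 bp in E14. At starts of protein-coding genes the E14 median was 23 bp (n = 13857), and at starts of lncRNA genes, the other set of noncoding transcripts, 14 bp (n = 873). Clusters of at most 10 bp made up 66.7% (62.0% to 71.0%) of those at pseudogenes, 28.6% at protein-coding starts and 42.0% at lncRNA starts. Over all 32857 E14 clusters, wherever they lay, the share was 46.4% and the median width 12 bp. The median was lower than at protein-coding starts on 20 of 20 chromosomes with at least 5 clusters of each set, in every line. Against lncRNA starts it was lower on 19 of 20 in E14, 18 in A1 and 20 in C7. Within the set, processed pseudogenes had a median of 4 bp and 73.5% of clusters (68.2% to 78.2%) of at most 10 bp, while the other types had a median of 11 bp and 49.1% (40.2% to 58.1%). By place, processed clusters upstream of the start had a median of 4 bp (n = 226). Those of the other types had 18.5 bp upstream (n = 28, quartiles 6.75 to 35 bp), above the lncRNA median, 12.5 bp in the first 500 bp inside (n = 30) and 6.5 bp farther inside (n = 58). Many of those farther inside were at 4930519F16Rik and Gm13230, which had 11 clusters each in E14 and median widths of 4 and 2 bp. No depth per cluster was available, so the part of depth in the widths was not tested.

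**Figure D3:**
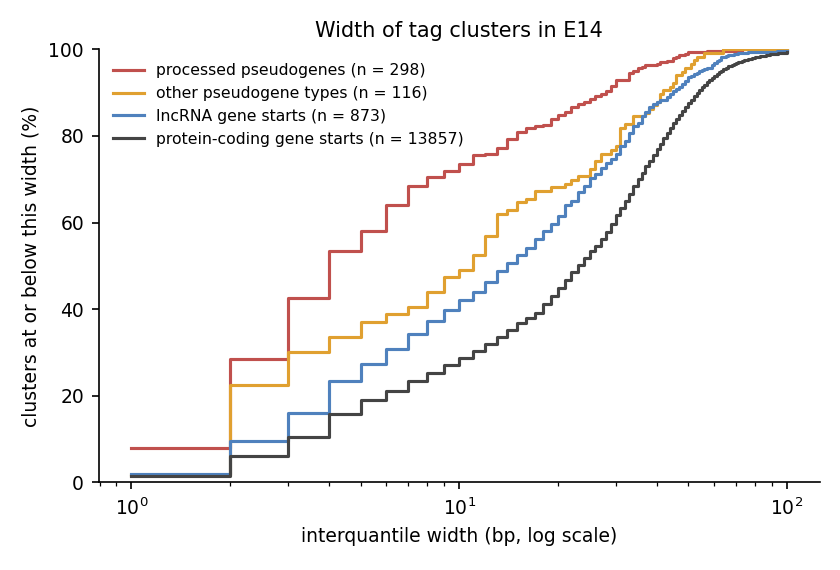
Cumulative share of E14 clusters (vertical axis, percent) at or below each interquantile width (horizontal axis, bp, log scale) for processed pseudogenes, other pseudogene types, lncRNA gene starts and protein-coding gene starts. At 10 bp the curves stand at 73.5%, 49.1%, 42.0% and 28.6%.

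A few clusters were much wider. The 5 widest in E14 were at Gm40848 on chromosome 12 (73 bp, dominant TSS 18387491), 4930519F16Rik (64 bp), Gm13034 (57 bp), Gm49326 on chromosome 12 (56 bp, dominant TSS 17881894) and Gm21647 on chromosome Y (53 bp, dominant TSS 34300564). The first 4 kept the same dominant TSS in A1 and C7. Gm21647 kept it in A1 and had it at 34300558 in C7.

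Retrocopies with a cluster were close to their parents in sequence. The closest protein-coding transcript was found by blastn for 386 of the 414 clusters in E14. It is called the match here, since for duplicated copies it need not be the source gene. The 248 processed pseudogenes with a match and a cluster had a median identity of 98.6% to it (quartiles 95.99% to 99.6%), and the 9409 without a cluster had 88.7% (81.2% to 94.4%). The share with a cluster was 0.532% below 80% identity, 0.0727% from 80% to 85%, 1.20% from 90% to 95%, 3.73% from 95% to 98%, 10.2% from 98% to 99% and 17.5% (14.6% to 20.8%) at 99% and above, where 102 of 583 had one. The other types showed no such order, with 3.55% from 90% to 95% and 1.18% (0.542% to 2.55%) at 99% and above. Identity is also what decides whether a read can be told apart from the match, and the part of read placement in this relation was not tested.

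**Figure D4:**
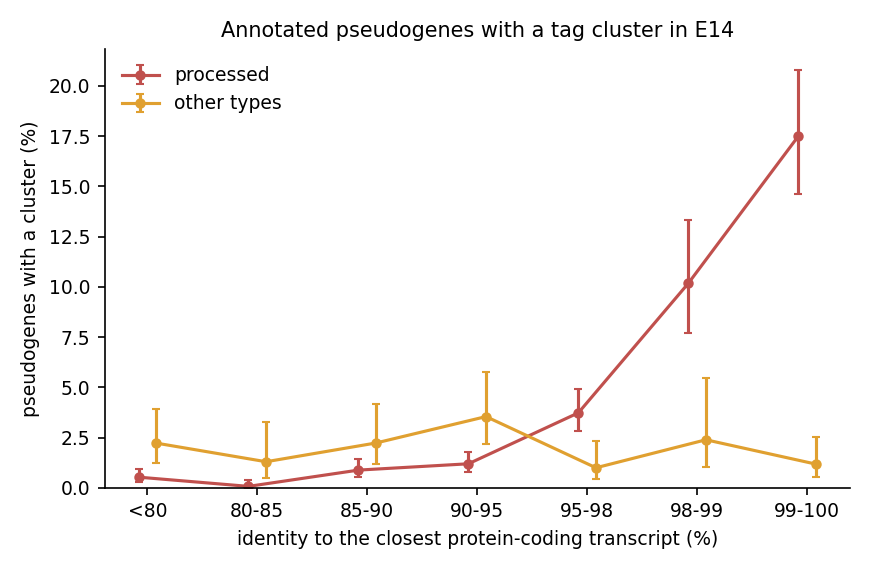
Percent of annotated pseudogenes with a tag cluster in E14 (vertical axis) by identity to the closest protein-coding transcript (horizontal axis, percent), for processed pseudogenes and other types, with 95% Wilson intervals. The processed line runs from 0.532% in the lowest class, through 0.0727% in the next, up to 17.5% in the highest, while the other types stay between 0.998% and 3.55%.

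By the family of the match, cytosolic ribosomal proteins had the most clusters among the named families, though not the highest share of copies with one. Their retrocopies, the most numerous in mammalian genomes, held 96 of the 414 clusters (23.2%) at 88 of 2457 annotated pseudogenes (3.58%), with a median width of 3.5 bp and a median identity of 98.95%. Zinc finger genes had 37 clusters at 15 of 196 pseudogenes (7.65%) and chromatin and nucleolar proteins 23 at 17 of 442 (3.85%). Chaperones had 12 at 9 of 238 (3.78%) and respiratory chain proteins 12 at 10 of 262 (3.82%). RNA binding proteins had 7 at 7 of 213 (3.29%) and ubiquitin and proteasome proteins 6 at 6 of 206 (2.91%). Translation factors had 5 at 5 of 204 (2.45%). Glycolytic enzymes had 2 clusters at 2 of 292 pseudogenes (0.685%), against 2.34% over all annotated pseudogenes, and the cytoskeleton list had 2 at 2 of 173 (1.16%). These 2 glycolytic sites were 3000002C10Rik, a match to Gapdh, and Pgk1-rs7, identical to Pgk1 over the aligned bases. Of 60 annotated copies of pluripotency genes, 1 had a cluster (1.67%, against 2.34% over all annotated pseudogenes). It was Zfp42-ps1 on chromosome 15, a copy of Zfp42 (also called Rex1), with a cluster 41 bp wide and 307 bp upstream of its start.

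Many retrocopy clusters began near a site where the match also had a dominant TSS, which need not be its start. Each dominant TSS was projected onto the match by the alignment, and upstream of the annotated copy by plain extension, which assumes no inserted or missing bases there. Of the 285 processed clusters that could be placed, 148 (51.9%, 46.1% to 57.7%) fell inside a tag cluster of the match in E14. Of these 285, 122 (42.8%, 37.2% to 48.6%) lay within 10 bp of a dominant TSS of the match and 18 at the same base. Fewer, 105 of 285, lay within 50 bases of the start of the match transcript, and among chaperone copies it was 1 of 12 against 7 of 12 near a dominant TSS. Of the other types, 11 of 64 fell inside a cluster of the match and 4 of 64 (6.25%, 2.46% to 15%) lay within 10 bp. Ribosomal protein retrocopies had the highest count, 58 of 94 (61.7%, 51.6% to 70.9%) within 10 bp, and among zinc finger copies it was 1 of 33. Examples at the same base were Rps23-ps1 on chromosome 3 (dominant TSS 37714709), Gm10288 (Rpl11), Rpl14-ps1 on chromosome 7 (45324943), Rps26-ps1 on chromosome 8 (107439585) and Gm13456, a copy of the elongation factor gene Eef1a1. In A1 the share within 10 bp was 45.3% and in C7 44.1%. Where several transcripts of the match scored alike and the one with the longest 5' part was taken, the E14 share was 37.2%.

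**Figure D5:**
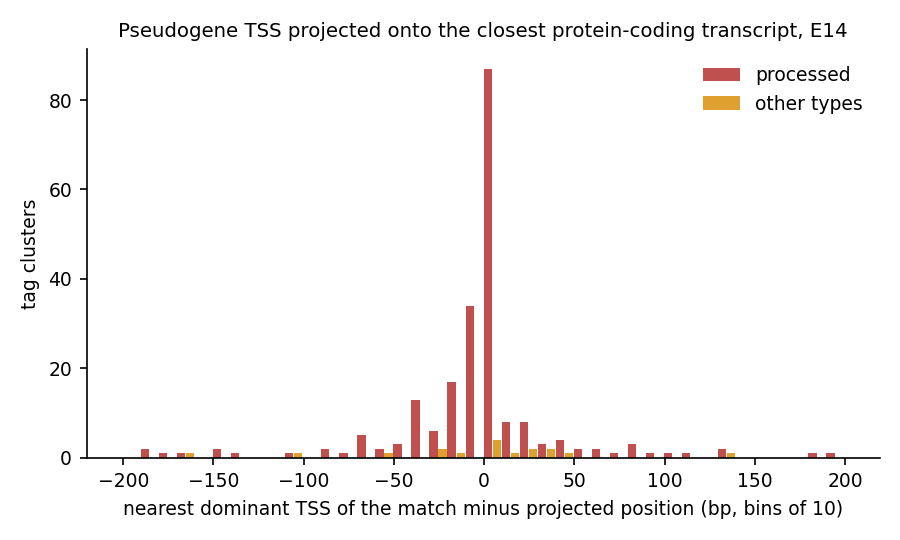
Number of E14 pseudogene clusters (vertical axis) by the distance in bp from the projected dominant TSS to the nearest dominant TSS of the match (horizontal axis, bins of 10 bp), for processed and other types. Of the 238 processed clusters with such a TSS, the bin from -10 to -1 bp holds 34 and the bin from 0 to 9 bp holds 87, against 0 and 4 of the other types.

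Over the length of one read the retrocopies differed little from their matches. Reads were 80 bases long and unique alignments were kept. The differences counted were mismatches and inserted or missing bases in the alignment. For 26 clusters at processed pseudogenes all 80 bases from the dominant TSS were aligned to the match, and the median number of differences was 1, with 23 of 26 at 4 or fewer and 7 at 0. For 16 clusters of the other types the median was 11. Several of these were sites of the same gene, Gm13230, among them sites with 7, 17 and 18 differences, so they are not independent. Most processed clusters start upstream of the sequence held, and where at least 40 bases of the read were known, 71 of 110 had no difference over them.

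The 7 full reads without a difference began at Gm10020 (Rpl15), Gm11539 (Rpl18), Gm15459 (Hspa8, a constitutive chaperone), Gm5844 (Hsp90aa1, a cytosolic chaperone), Gm9118 (Npm1), Gm9800 (Ptma) and Rpl14-ps1 (Rpl14). In Gm5844 and Gm9800 an exon junction of the match fell within the 80 bases, and in the other 5 none did. At all 7 the spliced transcript of the match has the same 80 bases as the copy, so these bases alone do not tell the 2 apart. At the 5 without a junction the genome also holds the same bases at the match, although only unique alignments were kept. How reads were placed at these 7 copies was not tested. The 7 clusters were from 1 to 6 bp wide. By family, the fewest and most differences were 0 at Gm15459 and Gm5844 and 1 at a second site in Gm15459 for chaperones. Among ribosomal proteins they were 0 at Gm10020 and Gm11539 and 3 at Rpl22-ps1. Among chromatin and nucleolar proteins they were 0 at Gm9118 and Gm9800, 3 at Gm4204 (Nap1l1) and 64 at Gm11336, an unprocessed histone copy. Over its whole alignment Gm11336 had 80.98% identity to its match. How many of its 64 differences were mismatches and how many were inserted or missing bases was not examined. For zinc finger matches they were 2 at Gm13147 and 7, 17 and 18 at sites in Gm13230. For the respiratory chain they were 1 at Gm11407, a nuclear copy of mt-Nd5, 1 at Gm28438, a nuclear copy of mt-Nd3, and 7 at Gm11927 (Ndufs3). For matches in no list they were 1 at Ftl1-ps2 and Gm8116, 10 at the polymorphic H2-Bl and 11 at Gm6445.

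The position on the match also went with its exon structure. Among processed clusters within 10 bp of a dominant TSS of the match, 71 of 122 (58.2%, 49.3% to 66.6%) had an exon junction of the match within the following 80 bases. Among those placed farther away it was 24 of 163 (14.7%, 10.1% to 20.97%), and among other types 1 of 64. Over 58758 protein-coding transcripts, 20.3% had a junction within their first 80 bases. That share is counted from annotated starts of all protein-coding genes, and the shares above from projected TSSs on the matches. Of the 122 clusters near a dominant TSS, 58 were at ribosomal protein copies, so the genes differ as well. A read that starts at the spliced gene crosses that junction and a read from the retrocopy does not, and how far reads of the spliced gene could be placed at the copy was not tested.

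Unitary and polymorphic pseudogenes were few and their clusters varied in width. Atp10d, a polymorphic pseudogene of a phospholipid-transporting ATPase on chromosome 5, had a cluster at its start with a dominant TSS at 72203321 in every line, 46 bp wide in E14 and A1 and 39 bp in C7, and a second, 2 bp wide, 43120 bp inside. Hyi, whose product is a hydroxypyruvate isomerase, had one of 22 bp at its start on chromosome 4. Oas1b, an antiviral gene that is truncated in many laboratory strains, had a 2 bp cluster 2 bp upstream of its start. H2-Bl, a class I histocompatibility gene, had a cluster 26 bp upstream and another 733 bp inside. Among transcribed unitary pseudogenes, Thap6 had 1 cluster, 21 bp wide in E14, Abhd11os had 2 of 31 and 12 bp and Zfp862-ps had 3 of 9, 6 and 4 bp. All were present in A1 and C7.

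Nearly the same pseudogene clusters were found in the DKO clones. Of the E14 clusters, 411 of 414 (99.3%, 97.9% to 99.8%) overlapped a cluster in A1 by at least 1 bp and 413 (99.8%, 98.6% to 99.96%) one in C7, and 404 and 412 had the same start and end to the base. Over all E14 clusters the overlaps were 99.3% in A1 and 99.2% in C7. Bounds that are the same to the base would also arise if the lines had been clustered together, and the part of cluster calling in these overlaps was not tested. Joined over the 3 lines there were 423 sites, 411 of them in all lines. Of the rest, 2 were present in A1 and C7 but absent in E14 (0.473%), and over all 33324 sites of the series the background was 0.444%. One site was in E14 alone (background 0.228%), 3 in A1 alone (0.651%), 4 in C7 alone (0.321%), 2 in E14 and C7 (0.471%) and 0 in E14 and A1 (0.510%). The counts in both clones and in E14 alone were 0 when each line needed a width of at least 3 bp. Each of these sites was 1 bp wide, so that minimum removes them by construction and says nothing about the lines. No share over all sites is given for that setting.

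The line-specific sites were 1 or 2 bp wide. Those in both clones were at Gm9836 on chromosome 5 (24256713), a copy of the ubiquitin-like gene Sumo2, and Gm46209 on chromosome 10 (7458319), a copy of Rpl17. Each was 1 bp wide in both clones. The site in E14 alone was at Gm9256 on chromosome 12 (115892843), a copy of Uevld with 99.2% identity. The counts outside this rule were small, and their sites, named after their values were seen, were Gm11847, 4933427G23Rik and Zfp640 in A1, Gm6286, Rps25-ps1, Gm10136 and AC165327.2 in C7, and Gm11539 and Gm15151 in E14 and C7. Without values per library, their absence in a line was not detectable beyond the threshold used for calling clusters.

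Within shared clusters the dominant TSS differed between lines at a minority of pseudogene sites. It differed from E14 in A1 at 81 of 411 (19.7%, 16.2% to 23.8%), against a background of 23.7%, and in C7 at 70 (17.0%, 13.7% to 20.97%) against 21.1%. In both clones it differed at 34 (8.27%, 5.98% to 11.3%), against 11.1%, and at 26 (6.33%, 4.35% to 9.11%) both clones had the same new position, against 8.47%. These intervals hold the background in A1 and in both clones, and the one in C7 ends just below it. The contrasts share E14. When the dominant TSS moved, it did so by a median of 4 bp in either clone, and by more than 10 bp at 17 of 411 sites in each (4.14%, 2.60% to 6.52%), below the 7.51% in A1 and 6.79% in C7 over all clusters. It lay upstream in both clones at 13 sites (3.16%, background 4.84%) and downstream at 18 (4.38%, background 5.43%). The interquantile region was wider than in E14 in both clones at 49 sites (11.9%, background 12.5%) and narrower in both at 11 (2.68%, background 3.99%). It was the same in all 3 lines at 272 of 411 sites (66.2%, 61.5% to 70.6%), against 59.4% over all clusters. Pseudogene clusters are also narrower than all clusters, and the part of width in these shares was not tested.

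The farthest moves in the same direction in both clones were within clusters of 16 to 45 bp. At Gm49329 on chromosome 12 the dominant TSS was at 17992876 in E14 and at 17992833 in A1 and C7, 43 bp upstream, in a cluster 45 bp wide in every line. At Hyi it was at 118359988 in E14 and at 118360009 in both clones, 21 bp downstream, from one edge of the 22 bp cluster to the other. At Anp32b-ps1 on chromosome 4 it went from 143389457 to 143389438 in both clones, 19 bp upstream. At Hist1h2al on chromosome 13, a histone H2A gene copy, it went from 51202968 to 51202953, 15 bp downstream on the minus strand. At Gm4606 on chromosome 14 it lay 29 bp upstream in A1 and 11 bp in C7. The amount of signal at the old and new positions is not in the deposited clusters.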

How the data were processed

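CAGE libraries were made from nuclear RNA without PCR and sequenced as single-end reads of 80 bases. Per the labels and methods, the authors mapped them to mm10 with STAR 2.4.2a, keeping unique alignments, and called tag clusters with CAGEr on replicates merged per line. The submitters' processing notes also name SAMtools 1.3 and bedtools 2.17.0. The deposited score of every cluster is 0, so the deposited blocks were used as positions (another kind of value than a signal), and depth per library was not analysed here. Clusters were assigned to GENCODE M21 genes (GRCm38) with Python 3.11.15 and NumPy 2.4.6, and figures were drawn with Matplotlib 3.10.9. Where several pseudogenes qualified, the one holding the TSS and then the nearest start was taken. Sites of the 3 lines were joined by overlaps of at least 1 bp. The closest protein-coding transcript was the blastn 2.17.0+ hit with the highest bit score on the plus strand (word size 15, E-value 1e-10, at least 100 aligned bases). The assignment and the parsing were tested on simulated clusters (2000 of 2000 recovered in each), as were overlaps (2000 of 2000) and read differences (500 of 500).

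The labels do not say whether libraries came from separate cultures, and no test across clusters was run, since clusters of one line are not replicates. The members, gene lists and tests were chosen with earlier results of these data known, and the zinc finger list, the projection onto the match, the windows of 5 Mb and the bases at the TSS were added after seeing the data. Genes were named by rule: the 10 with most clusters, all in both clones or E14 alone, the 5 widest, the 5 largest shared moves, all unitary or polymorphic ones, and per family the 2 with fewest and the 2 with most differences, ties by name. One ribosomal protein copy that this rule names is not reported here. Alternatives were windows of 100 and 1000 bp, the strand rule, the treatment of protein-coding genes, minimum widths, other overlap rules and other choices of the match. A planned limma comparison of values was not run, as there are no values. Apart from the RefSeq promoter windows, genome sequence upstream of pseudogenes was not used here.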

Additional observations from a re-analysis of the deposited data

How the results depend on the processing

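No paired analysis was possible because the replicates were merged before clusters were called, and for the same reason no replicate could be left out. Of 100 values recomputed under alternatives, 69 stayed within 1.5 times the main count or inside the 95% interval of the main share. Counts of clusters did so under all 8 alternatives in each line, from 303 to 457 in E14. With a width of at least 3 bp, clusters of at most 10 bp made up 54.5% (E14), 54.3% (A1) and 54.8% (C7), and 95.8% of A1 pseudogene clusters (93.0% to 97.5%) overlapped E14, against 97.6% of all A1 clusters of that width. Each clone alone against E14 gave 5 clusters in A1 and 6 in C7 without an E14 partner, and 3 E14 clusters without one in A1. Over all clusters the shares without one were 1.11%, 0.776% and 0.709%, while 98.8%, 98.6% and 99.3% of pseudogene clusters had one. Sites in both clones and not in E14 were 1 with a window of 100 bp, and 0, as were sites in E14 alone, with a width of at least 3 bp in every line. All of these sites were 1 bp wide, so the last setting removes them by construction. Dominant TSSs differing by more than 5 bp were 7.54% in A1 and 6.81% in C7 (11.7% and 10.4% over all clusters), and by more than 10 bp 4.14% in each (7.51% and 6.79% over all clusters). Alternatives chosen after seeing the data gave 69.5%, 68.8% and 69.8% of processed clusters upstream of the start with a window of 100 bp (E14, A1, C7). Also chosen then, the share within 10 bp of a dominant TSS of the match was 60.9%, 58.7% and 59.6% with the match taken from the symbol, and 37.2% in E14 and 37.9% in C7 with the longest 5' part among equal scores. Full reads with at most 4 differences were 61.9%, 61.0% and 61.9% over all types, 100% by symbol (n = 2), and 88.5%, 88.0% and 88.5% for processed pseudogenes. Where at least 40 bases of the read were known, the share was 80.9%, 80.6% and 81.2% (added after seeing the data). That set takes in reads aligned only in part, so the limit of 4 applies to fewer bases and the shares are not alike. Causes of these moves beyond the change in members were not tested. With 0 for every score, neither the signal of a cluster nor its reads could be weighed.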
